A study of Danio rerio with 33 samples.

Results

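dre-miR-462 and dre-miR-731 are 2 zebrafish mature miRNAs produced from neighbouring hairpins, and every row of the known miRNA tables with the number of either miRNA in its name was taken, whichever arm it named. The tables held 2 such rows, without an arm suffix, among 247 mature miRNAs of miRBase Release 19. Small RNA had been sequenced from 11 sample groups of wild type zebrafish of the Singapore strain, to find which miRNAs are associated with a tissue or a sex. These were embryo, eye, heart, the gonads (ovary and testis) and, from males and females apart, brain, liver and gut. There were 3 libraries per group, of which 2 were used for heart. The study left out the remaining heart library because its profile did not group with those of the other 2. The fishes had been bought from a supplier and acclimatized, and no group carried a mutation or a treatment. Each adult library held RNA pooled from several fishes, whose age was not given in the sources used here, and each embryo library pooled early embryonic stages with juveniles. The sample labels do not specify a sex for the eye, heart and embryo libraries, while the study's text describes eye and heart as taken from males. p-values therefore measure the spread between pools of fishes, and whether organs of the same sex came from the same fishes is not stated.

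A mature miRNA guides an Argonaute protein to matching sites in messenger RNAs, which lowers their translation or stability. The miR-462 and miR-731 pair belongs to fishes and is regarded as their counterpart of the mammalian miR-191 and miR-425 pair, whose hairpins lie in the Dalrd3 gene. In rainbow trout and other fishes the pair has been studied for its induction by interferon during viral infection, and in blunt snout bream for its response to low oxygen. In the RefSeq gene table of zebrafish (assembly GRCz12tu, which served only for names and gene order) both hairpin genes, dre-mir-462 and dre-mir-731, matched by symbol. They followed each other with no gene between them and were flanked by impdh2, which encodes an enzyme of guanine nucleotide synthesis, and by dalrd3. Their sequences were not used here.

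The total count on known miRNAs ranged from 277699 in ovary to 11732555 in heart, with a median of 1439827 per library. The defining miRNAs of brain, gut, liver, gonads, eye and embryo summed highest in those groups. dre-miR-499, a cardiac muscle miRNA, averaged 1724 normalised counts in heart. With dre-miR-1 and dre-miR-133a-3p it summed to 7448 and 8444 in the heart libraries, which overlapped the 7515 to 7882 of embryo. The other groups held at most 1178 of these, in male brain. The 4 eye miRNAs (dre-miR-183, dre-miR-182-5p, dre-miR-96 and dre-miR-184) nevertheless summed to 61436 and 74139 in the 2 heart libraries, against 86002 to 89845 in eye, so that the heart libraries carried eye miRNAs at nearly the level of eye. The 4 gut miRNAs (dre-miR-194a, dre-miR-194b, dre-miR-459-5p and dre-miR-196a) summed to 99214 to 147658 in male liver and 111299 to 135765 in female liver, against 217209 to 312072 in the gut groups.

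Levels are given as the normalised read counts that the authors deposited, in which the counts of a library are multiplied by 1 factor (TMM, the trimmed mean of M-values). Both miRNAs were found in every library, with 263 to 20364 reads of dre-miR-462 and 137 to 16568 reads of dre-miR-731. By group mean, dre-miR-462 ranked between place 42 in embryo and place 94 in male brain among the 247 miRNAs. dre-miR-731 ranked between place 45 in embryo and place 92 in ovary. Both were thus moderately abundant in every organ and highest in the embryo.

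Embryo and eye formed the upper end for dre-miR-462. The 3 embryo libraries held 1819, 1920.4 and 2309 normalised counts, and the 3 eye libraries held 1969, 1795 and 1971. These ranges overlapped, and the means were 2016 ± 259 (SD, n = 3) and 1912 ± 101 (SD, n = 3). Next in order came male gut with 1702, 1713 and 1606 normalised counts of dre-miR-462 and testis with 1524, 1899 and 1124. Male gut was among the tightest groups, at 1674 ± 59.1 (SD, n = 3), and testis the widest in absolute terms, at 1516 ± 387 (SD, n = 3), so that testis overlapped every group from embryo down to male liver.

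Heart held 1615 and 1291 normalised counts of dre-miR-462 in its 2 libraries. Female gut held 1211, 1498 and 1121, and male liver 1416, 858 and 1216. Heart, female gut and male liver overlapped each other. Female liver was lower, at 641, 992 and 715, and ovary followed at 630.4, 774 and 751. The 992 of female liver replicate 2 was above the 858 of male liver replicate 2, the only overlap between these groups.

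In normalised counts, brain was lowest for dre-miR-462. Female brain held 528, 480.4 and 531 normalised counts and male brain 474, 475 and 419. The libraries of both brain groups were below each of the other 26 libraries. In its order of 11 groups, neighbours overlapped except between eye and male gut, between ovary and female brain, and between female brain and male brain.

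The order differed for dre-miR-731. Embryo was again highest, at 1665, 1737 and 2133 normalised counts. Male gut came second, at 1642, 1524.5 and 1507, followed by eye, at 1630.0, 1286 and 1536. Male gut and eye overlapped. Heart held 1251 and 1180.2 normalised counts of dre-miR-731, and male liver 1259, 704 and 982. Male liver replicate 1 was the highest of its group for both miRNAs. It also held the most dre-miR-196a, a gut miRNA, at 1660.1 normalised counts against 627 and 675 in the other male liver libraries. The gut miRNAs dre-miR-459-5p (38869 against 27133 and 22727) and dre-miR-194a (104345 against 90719 and 74143) were likewise highest in it. The liver miRNA dre-miR-122 was lowest in it, at 31463 against 44970 and 45261. Whether these marker levels had a part in the level of either member was not tested. The liver values without this library are given beside the sex comparison.

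Testis held 932, 923 and 716 normalised counts of dre-miR-731, and female gut 850.5, 974 and 741. In these groups, unlike for dre-miR-462, testis stood in the middle of the order. The brain groups were not the lowest here. Female brain held 663, 456 and 548 normalised counts and male brain 565, 560.4 and 525. Female liver, at 389.7, 663 and 313, and ovary, at 328, 462.1 and 496, had the lowest means, at 455 ± 184 and 429 ± 88.6 (SD, n = 3 each). In normalised counts, all 4 groups lay below female gut without overlap. Ovary also lay wholly below male brain, while the other pairs among these 4 groups overlapped. This order depended on the scaling. As a percentage of the library's counts, without TMM, dre-miR-731 was 0.0493 to 0.0666 in ovary. It was 0.0553 to 0.0634 in male brain, so that these groups overlapped. Female brain replicate 1, at 0.0684, was then above female gut replicate 3, at 0.0674. By this measure ovary had a higher mean than either brain group, and female liver stayed lowest.

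**Figure D1:**
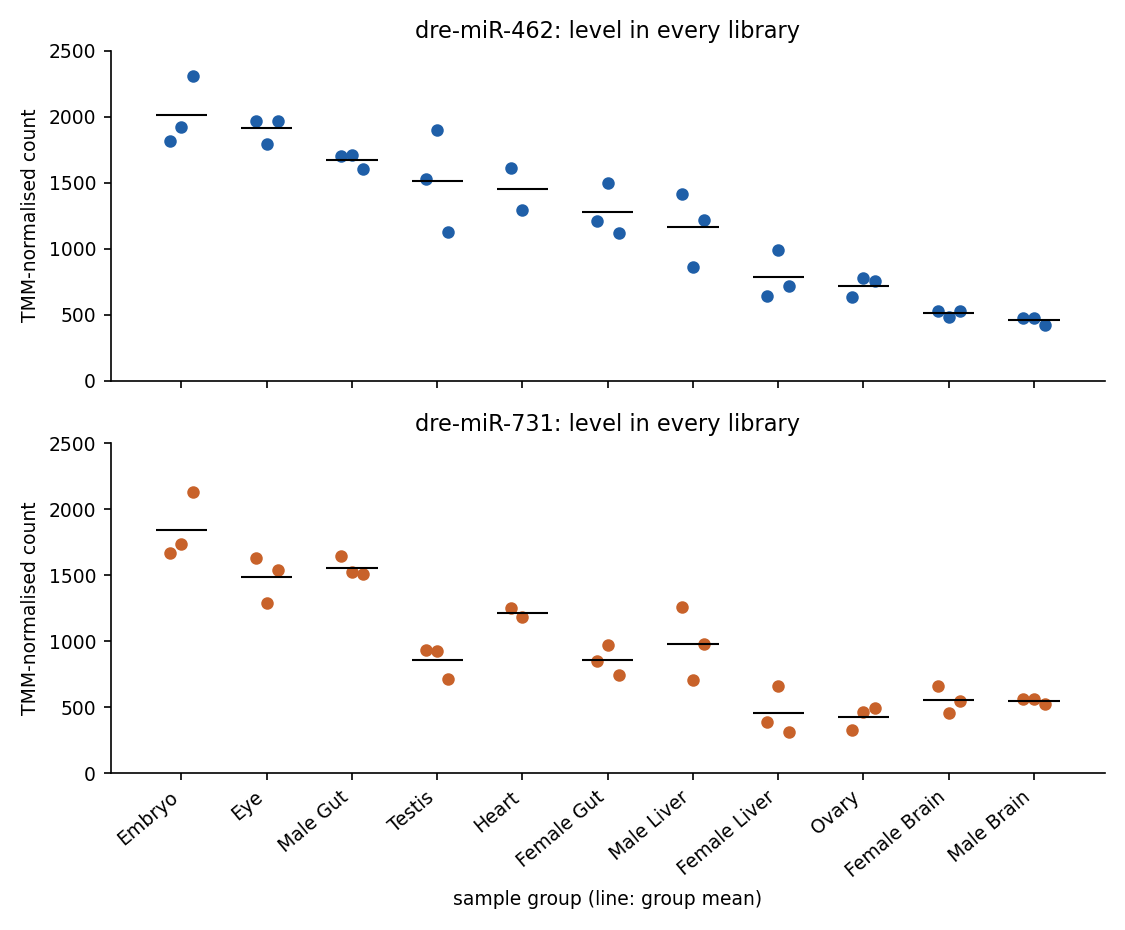
Deposited TMM-normalised counts (y axis, from 0) of dre-miR-462 (upper panel) and dre-miR-731 (lower panel) in each of 32 libraries (points), by sample group, with the group mean as a line. Groups are in the order of the dre-miR-462 means, from embryo at 2016 to male brain at 456, and testis stands lower in the lower panel (857) than in the upper one (1516).

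Across organs the pair varied less than most miRNAs. The highest group mean over the lowest was 4.41-fold for dre-miR-462 and 4.29-fold for dre-miR-731, with a pseudocount of 1. The median over the 216 miRNAs with a mean of at least 10 normalised counts was 18.5-fold, and 27 and 24 of these miRNAs, respectively, had a smaller fold than the 2 members. In bulk tissue, fewer cells of a type and less of a miRNA per cell cannot be told apart.

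The counts were then compared between all 55 pairs of sample groups with edgeR's quasi-likelihood model, adjusted by Benjamini-Hochberg within each pair. A miRNA was called as changed more than 2-fold where glmTreat gave an adjusted p of at most 0.05 against a log2 fold change of 1. dre-miR-462 was called in 17 and dre-miR-731 in 14 of the 55 pairs, against a median of 26 pairs per miRNA, and 46.9% of all tests over miRNAs and pairs were called. By the F-test of any difference, each member was called in 39 pairs, against a median of 42.5, with 73.8% of all tests called. For dre-miR-462, 13 of the 17 calls involved a brain group, with male brain below 7 groups and female brain below 6. For dre-miR-731, brain accounted for 6 calls, and ovary and female liver were each below the same number of groups, 4, namely embryo, male gut, eye and heart. The largest difference of dre-miR-462 was embryo over male brain, at a log2 fold change of 2.15 ± 0.188 (SE, edgeR adjusted p = 2.1e-07). That of dre-miR-731 was embryo over ovary, at 2.10 ± 0.225 (SE, edgeR adjusted p = 1.49e-05).

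The number of pairs past 2-fold moved with the library to which TMM scaled the others, male brain replicate 1 when all were used. With all 32 libraries kept and male liver replicate 3 as the reference, a setting added after seeing the data, dre-miR-462 was called in 10 and dre-miR-731 in 7 pairs. With female brain replicate 1 as the reference the calls were 17 and 14, and with testis replicate 3 they were 15 and 13. When any male gut library, female gut replicate 3, any female liver library or testis replicate 2 was left out, edgeR itself picked male liver replicate 3, and the calls were 10 or 11 and 7 to 9. The DESeq2 test called 9 and 7 pairs. Without the heart libraries, an alternative added after the eye miRNAs had been seen in them, 15 and 12 calls were found. The calls over all miRNAs were not counted under these settings. Whether the members moved more than other miRNAs is therefore not shown.

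Brain was compared with gut and liver as the mean of both sexes. dre-miR-462 was lower in brain by a log2 fold change of -1.29 ± 0.118 (SE, edgeR adjusted p = 0.00277 for more than 2-fold), where 67.6% of miRNAs were called by that rule. dre-miR-731 was lower by -0.67 ± 0.135 (SE), which did not pass 2-fold (edgeR adjusted p = 1) and passed the test of any difference (adjusted p = 4.27e-05), where 89.9% of miRNAs were called. The 2-fold call of dre-miR-462 was lost at a log2 fold change of -1.04 with the size factors of DESeq2, at -0.93 with library size alone, and at -0.94 to -1.12 without any 1 of 9 libraries (male brain replicate 1, female brain replicate 2, each male gut library, female gut replicate 3 and each female liver library). In those 9 runs the TMM reference was no longer male brain replicate 1. With all libraries kept, the value was -0.96 with male liver replicate 3 as the reference (edgeR adjusted p = 0.535) and -1.11 with female brain replicate 1 (adjusted p = 0.0812), and it kept its call with testis replicate 3, at -1.29. The direction held in each of these runs. For dre-miR-731 the value lay between -0.75 and -0.28 without 1 library. It was -0.43 to -0.28 without any 1 of 8 of those libraries (all but male brain replicate 1), -0.34 with male liver replicate 3 as the reference, -0.42 with DESeq2 size factors and -0.31 with library size alone, each still past the test of any difference.

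Gut was compared with liver in the same way. dre-miR-462 was higher in gut by a log2 fold change of 0.61 ± 0.128 and dre-miR-731 by 0.78 ± 0.152 (SE). Neither passed 2-fold (edgeR adjusted p = 1 for each), where 16.8% of miRNAs did. Both passed the test of any difference, with adjusted p of 0.000135 and 5.89e-05, where 68.5% of miRNAs were called.

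Females were compared with males within each organ. How many of all miRNAs had no overlap between the libraries of the sexes was not counted. Lack of overlap is thus only a description of the members. In brain the sexes were close. The libraries of dre-miR-462 did not overlap, at 480.4 to 531 normalised counts in females and 419 to 475 in males, but the log2 fold change of female over male was 0.17 ± 0.182 (SE, edgeR adjusted p = 0.647 for any difference). dre-miR-731 overlapped between the sexes, at a log2 fold change of 0.01 ± 0.214 (SE, edgeR adjusted p = 1), and the sign of this value changed with library size alone, with female brain replicate 1 or testis replicate 3 as the TMM reference, and without female brain replicate 1 or male brain replicate 3. Neither miRNA was called in brain, where 3.78% of miRNAs were called for more than 2-fold and 10.1% for any difference.

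In gut dre-miR-731 was lower in females. Its 3 female libraries held 741 to 974 normalised counts and its 3 male libraries 1507 to 1642, without overlap. The log2 fold change was -0.87 ± 0.214 (SE), which passed the test of any difference (edgeR adjusted p = 0.00287) and not the 2-fold test (adjusted p = 1). dre-miR-462 did not overlap between the sexes either, at 1121 to 1498 in females and 1606 to 1713 in males, with a log2 fold change of -0.39 ± 0.18 (SE, edgeR adjusted p = 0.106 for any difference). Gut had 2.94% of miRNAs called for more than 2-fold and 29.8% for any difference. With DESeq2 size factors the value of dre-miR-462 was -0.51 and passed (edgeR adjusted p = 0.0115), and it also passed in a fit of the gut groups alone.

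In liver both miRNAs were lower in females. dre-miR-731 held 313 to 663 normalised counts in female and 704 to 1259 in male liver, without overlap, and its log2 fold change was -1.10 ± 0.219 (SE, edgeR adjusted p = 0.000136 for any difference and 0.558 for more than 2-fold). dre-miR-462 overlapped, at 641 to 992 in females and 858 to 1416 in males, with a log2 fold change of -0.57 ± 0.183 (SE, edgeR adjusted p = 0.00991 for any difference and 1 for more than 2-fold). Liver had 15.1% of miRNAs called for more than 2-fold and 53.8% for any difference. Without male liver replicate 1, the library with the most dre-miR-196a, the value of dre-miR-462 was -0.40 and no longer passed (edgeR adjusted p = 0.0908), whereas that of dre-miR-731 was -0.87 (edgeR adjusted p = 0.00252). A fit of the liver groups alone also lost dre-miR-462, at -0.42.

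Markers of other organs moved with sex in these libraries. dre-miR-196a was at 627 to 1660.1 normalised counts in male liver and 93.7 to 209 in female liver, and dre-miR-459-5p at 22727 to 38869 and 15953 to 17806. dre-miR-194a did not separate the sexes, at 74143 to 104345 in male and 93458 to 116829 in female liver. dre-miR-122, the hepatocyte miRNA, was higher in the female libraries both in liver, at 77658 to 124047 against 31463 to 45261, and in gut, at 7977 to 11329 against 1855 to 2355. The 3 dre-miR-430 miRNAs of the embryo summed to 32.2 to 41.9 in female gut and 68.5 to 74.9 in female liver, against at most 0.597 and 3.65 in the male groups and 2155 to 8764 in ovary. The part of these in the sex differences was not tested.

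Ovary was lower than testis for both miRNAs. dre-miR-462 was at 630.4 to 774 normalised counts in ovary and 1124 to 1899 in testis, and dre-miR-731 at 328 to 496 and 716 to 932, with no overlap for either. The share of all miRNAs without overlap was not counted here either. The log2 fold changes were -1.07 ± 0.185 and -0.99 ± 0.22 (SE). Both passed the test of any difference (edgeR adjusted p = 1.12e-05 and 0.000311) and neither the 2-fold test (adjusted p = 0.315 and 0.508). Between the gonads 30.3% of miRNAs were called for more than 2-fold and 70.2% for any difference. These organs differ in far more than the sex of the fish.

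**Figure D2:**
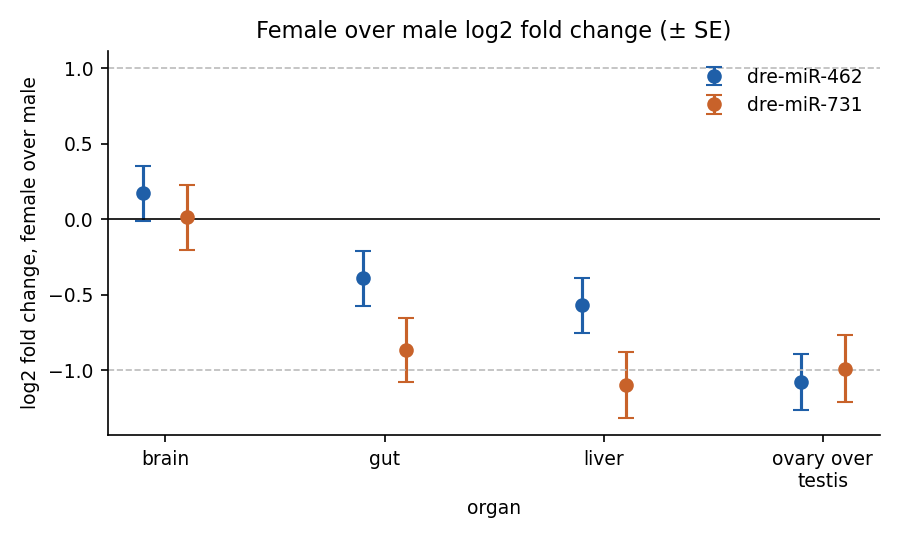
Log2 fold change of female over male (y axis) for dre-miR-462 and dre-miR-731 in brain, gut, liver and the gonads, with bars of 1 SE from the edgeR fit and dashed lines at a 2-fold change. In brain both values lie within 1 SE of 0 (0.17 and 0.01), and in gut and liver dre-miR-731 (-0.87 and -1.10) lies below dre-miR-462 (-0.39 and -0.57).

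Whether a sex difference itself differed between organs was tested as a difference of contrasts with the F-test. Liver and brain differed for both miRNAs. The female over male log2 fold change was lower in liver than in brain by -0.74 ± 0.258 for dre-miR-462 (SE, edgeR adjusted p = 0.0251) and by -1.11 ± 0.305 for dre-miR-731 (SE, adjusted p = 0.0054), where 37.4% of miRNAs were called. Without male liver replicate 1 the difference for dre-miR-462 was -0.57 (edgeR adjusted p = 0.0991), without male brain replicate 3 it was -0.68 (edgeR adjusted p = 0.0612), and with testis replicate 3 as the TMM reference it was -0.47 (edgeR adjusted p = 0.116). Gut minus brain gave -0.56 for dre-miR-462 (edgeR adjusted p = 0.145) and -0.88 for dre-miR-731 (adjusted p = 0.0601), where 10.1% of miRNAs were called. That of dre-miR-731 passed with DESeq2 size factors, with library size alone, with both other tests and in the fit of the compared groups alone. Liver minus gut gave -0.18 and -0.23 (edgeR adjusted p = 0.683 and 0.648), where 26.5% of miRNAs were called.

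The scaling between libraries bears on every normalised level and fold change above. With library size alone, the median log2 fold change of all miRNAs moved by -0.71 in the liver comparison, 0.44 between the gonads, 0.29 for brain over gut and liver, and 0.11 in gut. Ovary over testis then became -0.64 for dre-miR-462 and -0.55 for dre-miR-731. Liver minus brain became -1.42 and -1.81. With DESeq2 size factors the median moved by 0.18 for brain over gut and liver, -0.16 between the gonads and -0.11 in gut. A factor per library shifts all miRNAs of a comparison nearly alike, so values relative to that median change little by construction. Relative to that median, female over male liver was -0.44 to -0.46 for dre-miR-462 and -0.96 to -1.01 for dre-miR-731 over the 3 scalings. Ovary over testis was -1.37 to -1.38 for dre-miR-462 and -1.28 to -1.29 for dre-miR-731, and brain over gut and liver was -1.22 to -1.29 and -0.60 to -0.67.

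The ratio of dre-miR-462 to dre-miR-731 within a library does not depend on the scaling. A read count per miRNA also carries the capture efficiency of its sequence, so the ratio is read only as a change between groups and not as relative abundance in the cell. Over the 32 libraries the ratio ranged from 0.796 to 2.28. The SD of the group means was 0.37 on the log2 scale, against a pooled SD of 0.157 among the libraries of a group.

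Brain was at the low end of this ratio. The ratio was 0.838, 0.848 and 0.798 in male brain and 0.796, 1.05 and 0.968 in female brain. Brain was the only organ in which dre-miR-731 had the higher count in most libraries, namely in 5 of 6. Male gut followed with 1.04, 1.12 and 1.07, and embryo with 1.09, 1.11 and 1.08. Embryo was the tightest group, with an SD of 0.0151 on the log2 scale. Heart had ratios of 1.29 and 1.09, male liver 1.12, 1.22 and 1.24, and eye 1.21, 1.40 and 1.28.

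Female gut, the gonads and female liver were at the high end. The ratio was 1.42, 1.54 and 1.51 in female gut and 1.92, 1.68 and 1.51 in ovary. Testis had 1.64, 2.06 and 1.57, and female liver 1.65, 1.50 and 2.28. The ratio of 2.28 in female liver replicate 3 rests on 313 and 137 reads, and the ratio of 1.92 in ovary replicate 1 on 263 and 137 reads, the lowest counts in the series. Female gut did not overlap testis, the other pairs among these 4 groups overlapped, and each of their libraries was above every library of the other 7 groups.

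Females had the higher ratio in gut and liver. The log2 ratio was 0.58 ± 0.0588 in female gut and 0.10 ± 0.0589 in male gut (SD, n = 3 each), and 0.83 ± 0.32 in female liver and 0.25 ± 0.0743 in male liver (SD, n = 3 each). The libraries of the sexes did not overlap in either organ, and each difference, 0.47 in gut and 0.58 in liver, had an exact two-sided permutation p of 0.1, the smallest that 3 against 3 libraries allow. In brain the difference was 0.17, with overlap (exact permutation p = 0.4). Permuting sex within the organs gave a mean difference of 0.41 over brain, gut and liver, with an exact two-sided p of 0.001 over 8000 assignments. Each p over several organs, here and below, permutes every organ on its own. It holds only if organs of the same sex came from different fishes, which is not stated. Between ovary and testis the difference was -0.04 (exact permutation p = 0.7). Adjusted by Benjamini-Hochberg over these 5 permutation tests, p was 0.005 for the test over the 3 organs, 0.167 for gut and for liver, 0.5 for brain and 0.7 for the gonads. Leaving out 1 library at a time kept the difference over the 3 organs between 0.35 and 0.45, with exact permutation p of 0.00025 to 0.002. Leaving out 1 organ at a time gave 0.52 without brain, 0.37 without gut and 0.32 without liver, with exact permutation p of 0.005, 0.02 and 0.02.

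**Figure D3:**
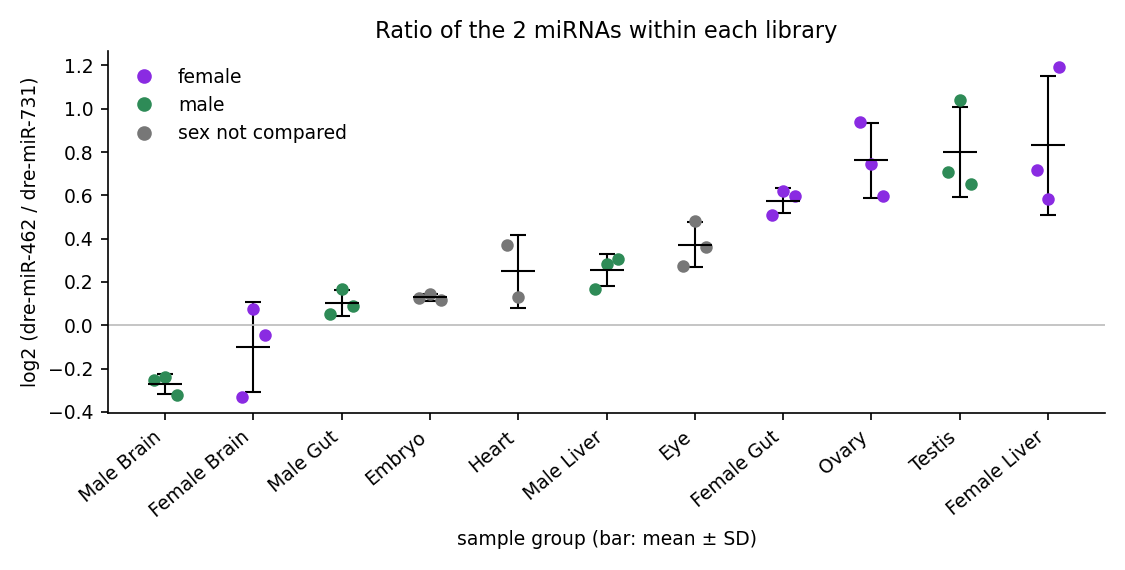
Log2 ratio of the counts of dre-miR-462 to dre-miR-731 (y axis) in each of 32 libraries (points, coloured by sex), by sample group in the order of the means, with bars for the mean ± SD. Male brain is lowest at -0.27, and female gut, ovary, testis and female liver lie highest, with means from 0.58 to 0.83.

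The miRNAs whose pattern over the 11 groups was most like each member were ranked by Pearson's r between group means of log2(normalised count + 1), over 215 other miRNAs with a mean of at least 10. This is a description, since the points share libraries and scaling. The other member came first for both, with r of 0.88 and Spearman's rho of 0.86, while the median r over the 215 miRNAs was 0.04 for dre-miR-462 and 0.01 for dre-miR-731. The pair also had the smallest SD of the log2 ratio over the groups among all partners of either member, 0.37 against medians of 1.53 and 1.48.

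After its partner, dre-miR-462 was most like dre-miR-155 (r = 0.87), dre-miR-199-3p (r = 0.82), dre-miR-27a (r = 0.78) and dre-miR-214 (r = 0.76). dre-miR-155 is known in mammals as a regulator of activated lymphocytes and macrophages, and miR-199 and miR-214 are made there from a shared transcript of mesenchymal cells. dre-miR-155 was scarce, with group means from 3.81 normalised counts in female brain to 65.3 in male gut. dre-miR-731 was next most like dre-miR-27e (r = 0.79), dre-miR-150 (r = 0.77), dre-miR-155 (r = 0.71) and dre-miR-27a (r = 0.70). dre-miR-150 is a miRNA of mature lymphocytes. In normalised counts it was lowest in ovary, at 512, as dre-miR-731 was. Without the heart libraries, or without any 1 of 8 other libraries, dre-miR-155 or another miRNA moved ahead of the partner for dre-miR-462 and the partner ranked second. By the Spearman correlation the partner ranked second for dre-miR-731.

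The next miRNA gene beyond impdh2 in the RefSeq gene order, mir135b, lies on the far side of arih2 and xpc. Its product dre-miR-135b, chosen for its position after the values had been seen, had r of 0.00 with dre-miR-462 and 0.23 with dre-miR-731. Its group means ran from 0.477 normalised counts in male gut to 712 in eye and 585 in heart.

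**Figure D4:**
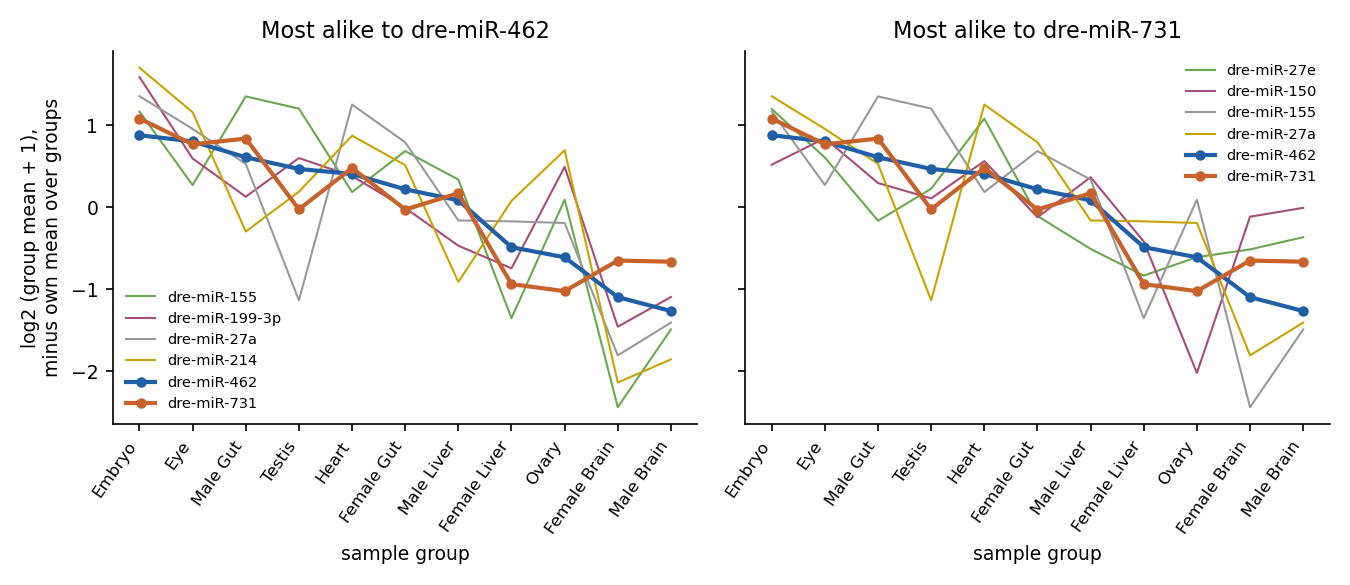
Log2 of the group mean plus 1, minus each miRNA's own mean over the 11 sample groups (y axis), for dre-miR-462 and dre-miR-731 (thick lines) and the other 4 miRNAs most like each (thin lines), with groups in the order of the dre-miR-462 means. The thick lines run closest together, with r = 0.88, and part at testis and at the 4 groups with the lowest dre-miR-462.

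miRNAs of the processes that the pair is known for in other fishes were examined as lists. Of low oxygen, the list held dre-miR-210-3p and dre-miR-210-5p, the arms of the best known hypoxia miRNA of vertebrates. In female over male liver, where both members were lower in females, both arms of miR-210 were higher by the test of any difference, with log2 fold changes of 0.76 and 0.53 (edgeR adjusted p = 0.000599 and 0.00745), where 53.8% of all miRNAs were called. In female over male gut, dre-miR-210-5p was lower, at -0.45 (edgeR adjusted p = 0.033), and dre-miR-210-3p was at -0.11 (adjusted p = 0.679). The test of any difference called 29.8% of all miRNAs there. In brain over gut and liver the arms went apart. dre-miR-210-5p was higher at 1.18 (edgeR adjusted p = 0.0132 for more than 2-fold), where 67.6% of all miRNAs were called by that rule. dre-miR-210-3p was lower (edgeR adjusted p = 2.67e-09 for any difference and 0.341 for more than 2-fold), where 89.9% of all miRNAs were called for any difference. The median of the 2 arms was 0.64 in liver, beside -0.13 over all miRNAs.

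The list of leukocyte and inflammation miRNAs held 8 (dre-miR-142a-3p, dre-miR-142a-5p, dre-miR-142b-5p, dre-miR-146a, dre-miR-146b, dre-miR-150, dre-miR-155 and dre-miR-223). In brain over gut and liver, 7 of the 8 were lower more than 2-fold, with a median log2 fold change of -2.22 beside 0.00 over all miRNAs, of which 67.6% were called by that rule in either direction. The exception was dre-miR-150, at -0.09 (edgeR adjusted p = 0.394 for any difference). In gut over liver, 6 of the 8 were higher and 1, dre-miR-146a at -0.86, was lower by the test of any difference, which called 68.5% of all miRNAs.

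In female over male liver, 5 of the 8 leukocyte and inflammation miRNAs were lower and 1 higher by the test of any difference, which called 53.8% of all miRNAs. The lower ones were dre-miR-142a-3p (-0.82), dre-miR-142a-5p (-0.69), dre-miR-142b-5p (-0.50), dre-miR-150 (-0.78) and dre-miR-155 (-1.71), the last of which also passed 2-fold (edgeR adjusted p = 0.0476). dre-miR-146a, which in mammals restrains inflammatory signalling, was higher at 0.89. The list's median was -0.59, beside -0.13 over all miRNAs. In gut 2 of the 8 were lower, dre-miR-142a-5p (-0.52) and dre-miR-155 (-0.68), a share near the 29.8% of all miRNAs called there. In brain none of the 8 passed either edgeR test, where 3.78% of all miRNAs were called for more than 2-fold and 10.1% for any difference. Without adjustment, 3 of the 8 had p under 0.05 in the test of any difference. dre-miR-142a-5p (-0.39) and dre-miR-155 (-0.92) were lower in females, and dre-miR-146b (0.50) was higher. The share of all miRNAs under that unadjusted limit was not counted, so the 3 of 8 is not a result about the list. dre-miR-155 was scarce there, at group means of 3.81 normalised counts in female brain and 8.27 in male brain. In ovary over testis, dre-miR-150 (-2.12) and dre-miR-155 (-1.07) were lower by the test of any difference, as both members were, whereas the other 6 of the list were higher, where 70.2% of all miRNAs were called. The list thus did not move one way between the gonads.

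Blood and vessel miRNAs were examined because each organ holds both. The red blood cell miRNAs dre-miR-144 and dre-miR-451 summed to 8742 to 16663 normalised counts in male gut and 6134 to 8407 in female gut, without overlap. Both were lower in female gut by the test of any difference, at -1.27 and -0.81 (edgeR adjusted p = 0.000158 and 0.00923), where dre-miR-731 was lower as well and 29.8% of all miRNAs were called. In liver their sums overlapped, at 8068 to 14521 in males and 6693 to 9592 in females, and neither passed (edgeR adjusted p = 0.0569 and 0.0715). In brain over gut and liver both were lower more than 2-fold, at -2.36 and -3.90, by the rule that called 67.6% of all miRNAs. The sums were 610 to 845 in male brain and 626 to 680.3 in female brain, where normalised dre-miR-462 was lowest, and 2517 to 2733 in embryo, where both members were highest. Their part in the members' levels was not tested.

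Of the 4 endothelial miRNAs of the miR-126 family, 1 passed between the sexes in gut and in liver. It was dre-miR-126a-3p, higher in female gut and female liver, at log2 fold changes of 0.34 and 0.30 (edgeR adjusted p = 0.0207 and 0.0233 for any difference). The others did not pass in either organ. The test of any difference called 29.8% of all miRNAs in gut and 53.8% in liver. In ovary over testis, dre-miR-126a-3p and dre-miR-126b-3p were higher more than 2-fold, at 1.69 and 1.85, where 30.3% of all miRNAs were called. By the test of any difference, which called 70.2% of all miRNAs there, dre-miR-126a-5p and dre-miR-126b-5p were lower at -0.46 each. The counts of dre-miR-126a-5p and dre-miR-126b-5p were nearly equal in every library, and these miRNAs may share reads. All 4 were lower in brain than in gut and liver more than 2-fold, at -1.49 to -1.84, where 67.6% of all miRNAs were called.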

How the data were processed

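The authors prepared small RNA libraries with the TruSeq kit from gel-cut fragments, sequenced them on an Illumina HiSeq instrument, trimmed adaptors and counted reads on known mature miRNAs of miRBase Release 19 with the quantifier of miRDeep2. CASAVA 1.8.2, cutadapt and edgeR are named in the submitters' processing notes. The deposited counts per miRNA are not normalised. The deposited normalised signal is the same count table multiplied by 1 TMM factor per library, and gave the levels. Columns were matched to samples by name, 0 columns were left unmatched, and 1 further heart sample is not analysed here. Total counts of 277699 to 11732555 per library set the precision.

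Counts of the 238 miRNAs with a read were fitted with edgeR 4.0.16 (R 4.3.3), with TMM factors, a quasi-likelihood model and 1 coefficient per sample group over all 32 libraries. glmTreat tested against a log2 fold change of 1 and glmQLFTest any difference, with Benjamini-Hochberg adjustment at 0.05. Standard errors derive from the F statistic. Lists were described by counts and medians. Exact permutation tests and correlations used Python 3.11.15 with scipy 1.17.1. Replicate libraries of a group differed by more than sampling noise, with chi-square over degrees of freedom of at least 3.82. Only the 2-fold call for female over male gut was tried on simulated counts, with planted changes larger than the members' sex differences. The other tests were not tried on simulated data. Both members, and for each the 5 miRNAs most like it, the listed miRNAs and organ markers are named by rule. The members and lists were chosen with earlier results of these data known. Alternatives were DESeq2 1.42.0 size factors and test, scaling by library size alone, the likelihood ratio test, removal of miRNAs with low counts, leaving out each library, separate fits of the groups compared, and a block for the replicate number. For levels, ratios and likeness they were other scalings, pooled counts, organs left out, another pseudocount of 10, no filter, Spearman correlation and single libraries. The other TMM reference libraries, the run without heart and the leaving out of libraries for the ratio test and the likeness were added after seeing the data.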

Additional observations from a re-analysis of the deposited data

Results flagged for a closer look

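The female over male log2 fold change differed between liver and brain for both miRNAs, by -0.74 for dre-miR-462 (edgeR adjusted p = 0.0251) and by -1.11 for dre-miR-731 (edgeR adjusted p = 0.0054). This test called 37.4% of all miRNAs. The call of dre-miR-462 was lost without male liver replicate 1, at -0.57, without male brain replicate 3, at -0.68, and with testis replicate 3 as the TMM reference, at -0.47. In female liver dre-miR-462 was lower in 2 of 3 libraries than every male library, and dre-miR-731 in 3 of 3. How many of all miRNAs separated the sexes in this way was not counted, and 53.8% were called for any difference in liver. No library was tested for standing apart from its group, since groups of 3 are too small for that.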

How the results depend on the processing

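Of 904 alternative values of the comparisons, 802 counted as kept. Fold changes had to keep the direction and the side of the threshold. A fold change that missed the threshold at first thus counted as kept if it missed it again, so the tally does not measure how firm the calls were. The 2-fold call of dre-miR-462 for brain over gut and liver was lost in 9 of 18 runs that left out 1 library. The ratio by sex had to keep its direction and, outside the gonads, its side of the threshold. Pair counts, likeness ranks and the correlation of the pair had to stay near the first value. By female over male comparison, the alternatives moved these. In brain, dre-miR-731 went to -0.046 with library size alone. In gut, dre-miR-462 passed the test of any difference at -0.51 with the size factors of DESeq2 and with its test, and at -0.39 in the fit of the compared groups alone. In liver, both miRNAs passed 2-fold with library size alone, at -1.31 for dre-miR-462 and -1.86 for dre-miR-731. The median over all miRNAs was then -0.85, so these calls carry a shift of the whole comparison. dre-miR-462 missed any difference at -0.42 in the fit of the liver groups alone. For brain over gut and liver, dre-miR-462 missed 2-fold at -1.04 with the size factors of DESeq2 and with its test, and at -0.93 with library size alone. For gut minus brain, dre-miR-462 passed at -0.77 with the size factors of DESeq2 and with its test, and at -0.54 with the compared groups alone. dre-miR-731 passed at -1.08 with both, at -0.68 with library size alone, at -0.88 in the likelihood ratio test and at -0.86 with the compared groups alone. For liver minus gut, both passed with library size alone, at -1.06 and -1.13. The DESeq2 test called 9 and 7 pairs of groups past 2-fold. The share of all miRNAs called was not counted for any alternative in this paragraph. The cause of these moves was not tested. The log2 ratio by sex missed the threshold within single organs (0.17 in brain, 0.47 in gut, 0.58 in liver; exact permutation p = 0.4, 0.1 and 0.1), where 3 against 3 cannot pass. With all libraries kept and TMM referred to female brain replicate 1, dre-miR-731 in brain was -0.0043 and dre-miR-462 in brain over gut and liver missed 2-fold at -1.11. With male liver replicate 3 the latter missed at -0.96, gut minus brain passed at -0.61 for dre-miR-462 and -0.92 for dre-miR-731, and 10 and 7 pairs were called. With testis replicate 3, dre-miR-731 in brain was -0.13, dre-miR-462 in gut passed at -0.45, gut minus brain of dre-miR-731 passed at -0.79, liver minus brain of dre-miR-462 missed at -0.47, and liver minus gut of dre-miR-462 turned to 0.0092.

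Leaving out 1 library moved dre-miR-731 in brain over -0.13 to 0.12, with a reversed sign at -0.02 without male brain replicate 3 and -0.13 without female brain replicate 1. It moved dre-miR-462 in liver over -0.75 to -0.40, dre-miR-462 in brain over gut and liver over -1.33 to -0.94, gut minus brain of dre-miR-731 over -0.98 to -0.73, and liver minus brain of dre-miR-462 over -0.94 to -0.57. Pairs past 2-fold ran from 10 to 18 for dre-miR-462 and 7 to 15 for dre-miR-731. The log2 ratio of ovary minus testis ran from -0.13 to 0.08, and was 0.04 without ovary replicate 3 and 0.080 without testis replicate 2. The correlation of the pair ran from 0.87 to 0.89, with 0.86 by Spearman, 0.87 over single libraries, 0.90 with library size alone and 0.87 without heart. The partner's rank ran from 1 to 2 for dre-miR-462, at 2 without heart, and was 2 for dre-miR-731 by Spearman.

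Whether the replicate numbers pair libraries was examined only between female and male libraries of an organ and between ovary and testis. Same-numbered libraries of different organs of the same sex were not compared. Same-numbered female and male libraries deviated with r of -0.18 to 0.22 over 216 miRNAs, over 0.1 in 4 of 12 pairs. That count was not made for differently numbered libraries, which spanned a wider range. Their r was 0.23 for female liver replicate 2 with male liver replicate 3, and -0.35 for female gut replicate 2 with male gut replicate 1. With the replicate number as a block, liver gave -0.58 for dre-miR-462 and -1.10 for dre-miR-731, calls past 2-fold stayed at 17 and 14 pairs, and no call changed.

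Depth limits the ratio in ovary and female liver, where dre-miR-731 had as few as 137 reads. Intervals were not computed for single libraries. Heart rests on 2 libraries that carry eye miRNAs.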
